A study of Mus musculus with 4 samples.

Results

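The cytosolic ribosomal protein genes were followed in RNA-seq counts of mouse lung lymphatic endothelial cells, which form the lining of lymph vessels. They were chosen by name, as the rows whose symbol is Rpl or Rps followed by a number and at most 1 letter, together with Rplp0, Rplp1, Rplp2 and Rpsa and without the ribosomal S6 kinase genes. The rule took 81 of the 24421 rows of the table, 49 for the large and 32 for the small ribosomal subunit. Cells negative for the leukocyte protein CD45 and positive for the endothelial protein CD31 and for GFP were sorted from lungs at postnatal day 0. The group labelled Jun-cKO came from Prox1-CreER;Junf/f;Rosa26-mTmG animals, with both Jun alleles floxed. The Jun-Ctrl group came from Prox1-CreER;Junf/+;Rosa26-mTmG animals, so these controls also carry the Cre and 1 floxed Jun allele. In both groups the Cre depends on tamoxifen and is driven by Prox1, a gene of lymphatic endothelium, and the Rosa26 reporter turns green where Cre has acted. The series' design text names Prox1-GFP mice instead, and it states that cells of 3 replicates were mixed before the RNA was amplified. Each group pools lungs of 3 to 5 mice, and each group has 2 libraries (n = 2 throughout).

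A ribosome is built from ribosomal RNA and a fixed set of proteins, each present once in most ribosomes apart from the stalk proteins, so cells need their messages in roughly matched amounts. The large subunit forms peptide bonds and holds the tunnel through which the new protein leaves, and the small subunit reads the mRNA. The messages start with a run of pyrimidines, the terminal oligopyrimidine (TOP) motif, through which the growth kinase complex mTORC1 and the RNA-binding protein Larp1 control their translation, and their genes have left many processed pseudogenes in mammalian genomes.

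Promoter sequences are shown for ribosomal protein genes that were called higher in the Jun-cKO-labelled libraries. They are shown because the TOP run lies at the start of transcription and the AP-1 motif is a letter pattern bound by Jun dimers. Of the 81 genes, 60 have an entry in the RefSeq promoter set (GRCm38.p6), with 72 promoters in all. Each stretch holds 60 bases before and 20 bases after the annotated start, 5′ to 3′ on the gene's strand. Capitals mark a run of at least 8 pyrimidines that begins with C, or the Ets motif CCGGAAG on either strand. The first 3 genes have the largest called increases among those with an entry, and the other 5 are further called genes whose stretch holds such a run. The stretches lie at chrX:74270756-74270835 (plus strand) for Rpl10, chr17:24720003-24720082 (plus) for Rps2, chr7:109519135-109519214 (plus) for Rpl27a and chr8:123102290-123102369 (plus) for Rpl13. Those of the remaining genes lie at chr4:86857348-86857427 (minus) for Rps6, chr17:27635225-27635304 (minus) for Rps10, chr5:107900468-107900547 (plus) for Rpl5 and chr14:18270967-18271046 (minus) for Rpl15.
Rpl10: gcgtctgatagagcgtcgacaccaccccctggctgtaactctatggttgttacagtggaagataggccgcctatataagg
Rps2: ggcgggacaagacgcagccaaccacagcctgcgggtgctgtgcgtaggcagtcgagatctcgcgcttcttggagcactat
Rpl27a: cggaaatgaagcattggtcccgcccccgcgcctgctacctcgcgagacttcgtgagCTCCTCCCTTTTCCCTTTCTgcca
Rpl13: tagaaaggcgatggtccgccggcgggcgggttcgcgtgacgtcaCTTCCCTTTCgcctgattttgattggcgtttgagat
Rps6: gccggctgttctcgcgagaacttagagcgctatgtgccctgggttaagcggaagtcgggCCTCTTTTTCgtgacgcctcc
Rps10: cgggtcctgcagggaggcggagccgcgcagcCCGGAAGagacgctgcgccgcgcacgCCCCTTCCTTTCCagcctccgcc
Rpl5: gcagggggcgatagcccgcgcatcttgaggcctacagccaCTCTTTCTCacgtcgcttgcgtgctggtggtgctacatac
Rpl15: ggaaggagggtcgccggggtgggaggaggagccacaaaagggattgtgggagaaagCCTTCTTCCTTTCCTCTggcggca

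A pyrimidine run of 8 bases beginning with C, searched on the gene's strand in the 80 bases from 40 before to 40 after the start, was present in 47 of the 72 ribosomal protein promoters (65.3%), against 23.2% of the 32851 promoters in the set. Among the promoters of genes called higher the share was 10 of 14 (71.4%), close to that of the ribosomal protein promoters as a whole. The other motifs were searched on both strands in 300 bases, from 250 before to 50 after the start. The Ets motif CCGGAAG stood in 36.1% of the ribosomal protein promoters and 8.86% of all promoters. For the YY1 motif AAGATGGC, whose first letters can overlap the end of the Ets motif, the shares were 9.72% of ribosomal protein promoters and 2.75% of all. The E-box CACGTG was found in 11.1% of ribosomal protein promoters and 7.15% of all, and the NRF1 motif GCATGCGC in 4.17% of ribosomal protein promoters and 2.71% of all. The AP-1 motif, TGACTCA or its reverse complement TGAGTCA, was found in 2 of the 72 promoters (2.78%), those of Rpl22 and Rpl9, against 5.2% of all promoters. These matches describe letters only, and other patterns that Jun dimers can bind were not searched.

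The libraries held 15558476 and 6911821 counts in the Jun-cKO-labelled group and 16037416 and 6483514 counts in Jun-Ctrl, replicate 2 being in each group the shallower library. Jun, the targeted gene and a subunit of AP-1, stood at 523.8 and 474.5 CPM (counts scaled to a common library size by TMM) in the Jun-cKO-labelled libraries, against 472.0 and 432.8 CPM in Jun-Ctrl. Its log2 fold change was 0.14 with a standard error of 0.119 (adjusted p = 0.354, edgeR quasi-likelihood, Benjamini-Hochberg, range 0.00148 to 0.993 over the alternatives), so a loss of Jun mRNA was not seen and the name "Jun-cKO-labelled" is kept throughout. What the floxed allele loses is not given in the sources used here. Of 7 lymphatic endothelial markers 6 were tested, and their summed level was 17177 and 17788 CPM in Jun-cKO-labelled libraries and 13061 and 11856 CPM in Jun-Ctrl, with Ccl21a at 0 counts in all libraries. Of these 6, Reln, Lyve1 and Mmrn1 were called higher and Flt4, the receptor for VEGF-C, lower (log2 fold change -0.60), Flt4 in all 17 analyses. The sums of 9 lung epithelial markers were 139.1 and 141.9 CPM in Jun-cKO-labelled libraries and 1495 and 1560 CPM in Jun-Ctrl, with 8 of 9 called lower. Those of 8 immune markers were 202.0 and 179.7 CPM in Jun-cKO-labelled libraries and 462.3 and 451.0 CPM in Jun-Ctrl, with all 6 tested called lower and Cd3e at 0. Those of 6 mesenchymal markers were 69.7 and 62.9 CPM in Jun-cKO-labelled libraries and 257.4 and 260.2 CPM in Jun-Ctrl, with 4 called lower. Those of 5 blood endothelial markers were 429.3 and 397.0 CPM in Jun-cKO-labelled libraries and 569.7 and 605.2 CPM in Jun-Ctrl, with 3 lower and 1 higher. The 4 erythroid markers summed to at most 1.07 CPM, Hbb-bs and Hba-a1 being at 0. These cell type signals move with the groups, and their part in the ribosomal protein results was not tested. In bulk RNA a gene's lower level from fewer cells of a type cannot be told apart from less RNA per cell.

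Ribosomal protein genes took a large share of each library. They made up 9.01% and 9.76% of the counts in Jun-cKO-labelled libraries, against 8.26% and 9.75% in Jun-Ctrl. The means were 9.38 ± 0.531% in the Jun-cKO-labelled libraries and 9.004 ± 1.05% in Jun-Ctrl (SD, n = 2 each), and the difference of 0.381 percentage points is smaller than the spread between the Jun-Ctrl libraries. With 2 libraries against 2, an exact two-sided permutation test cannot go below p = 0.33.

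Levels between genes are compared per length, as TPM (counts per base of gene length, scaled to a common sum) computed from the counts and the authors' gene lengths. Whether counts scale with gene length in these amplified libraries was not tested. The order depends on this division, since by mean CPM over the 4 libraries Rpl4 (4199) stands above Rps12 (2818). The median gene stood at 2165 TPM over the 4 libraries. The most abundant was Rpl17, a protein at the mouth of the peptide exit tunnel, with 9359 ± 1835 TPM in Jun-cKO-labelled libraries and 11185 ± 775 TPM in Jun-Ctrl (SD, n = 2 each). Rps12, of the small subunit, averaged 9781 ± 896 TPM in Jun-cKO-labelled libraries and 10104 ± 390.0 TPM in Jun-Ctrl. Rps20, a protein of the small subunit head, averaged 8740 ± 592 TPM in Jun-cKO-labelled libraries and 8830 ± 1388 TPM in Jun-Ctrl. Rpl12, at the base of the stalk, averaged 6163 ± 1005 TPM in Jun-cKO-labelled libraries and 7012 ± 30.5 TPM in Jun-Ctrl. In TPM the groups overlap for Rpl17, Rps12 and Rps20 and stand apart for Rpl12, whose CPM values overlap. The ranges over the 4 libraries overlap between Rpl17 and Rps12 and between Rps12 and Rps20, so these neighbours in order do not differ beyond their spread. In the plot of levels by gene most of the genes lie in 1 band, and a few stand far under it.

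**Figure D1:**
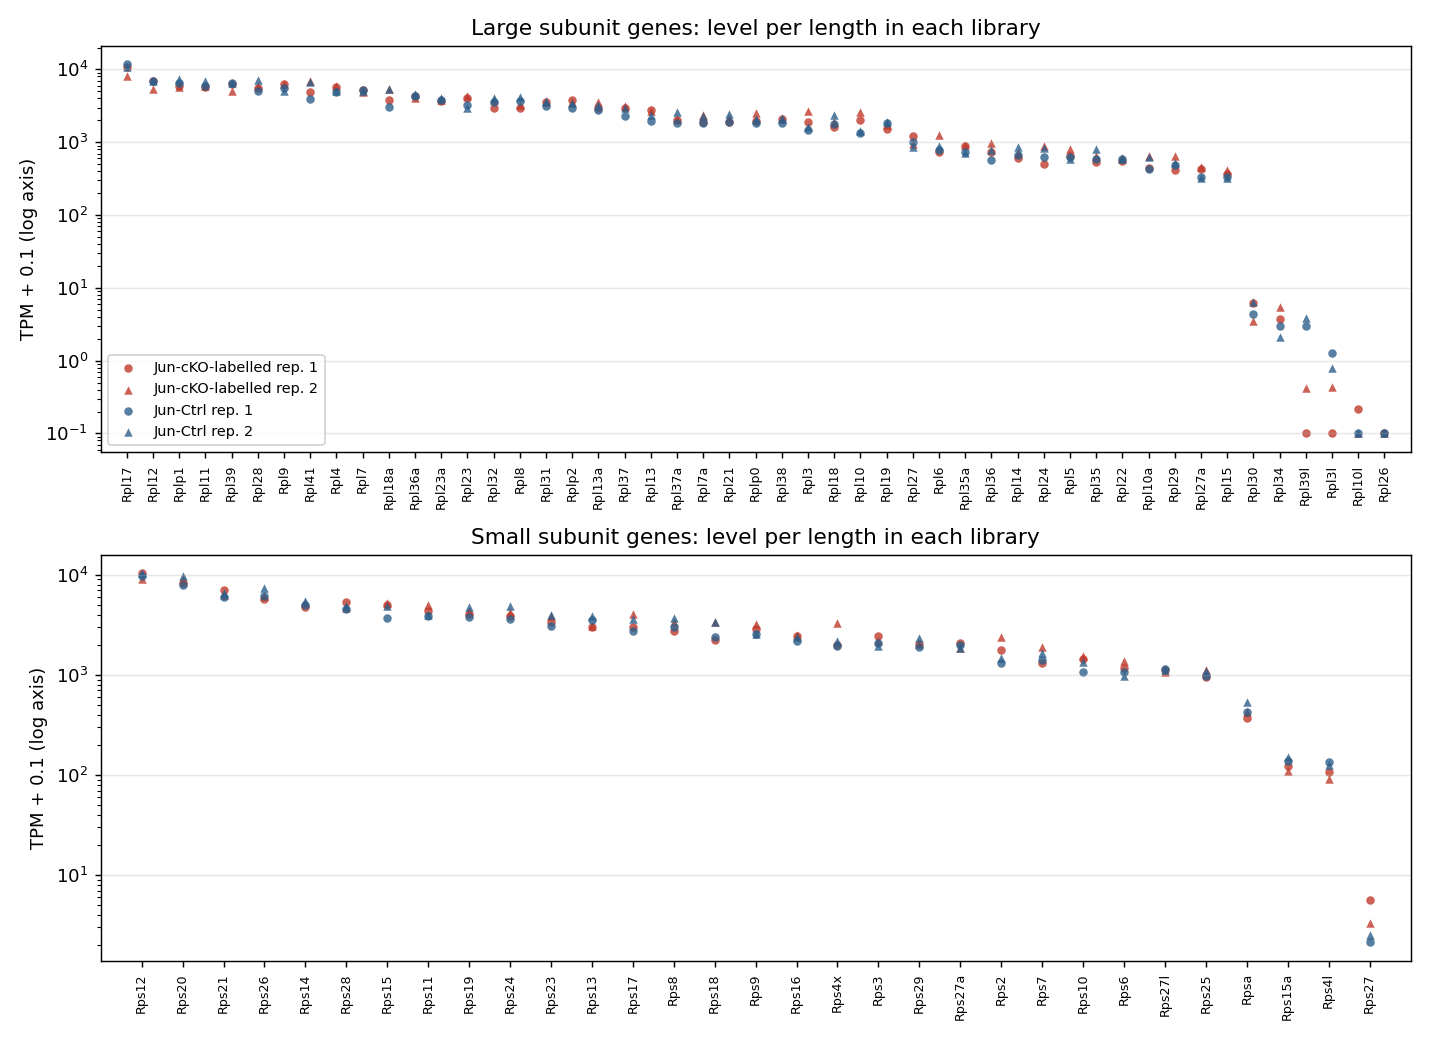
Levels of ribosomal protein genes in each library, as TPM + 0.1 on a log axis, with the large subunit above and the small subunit in the lower panel, genes ordered by mean level (red, Jun-cKO-labelled; blue, Jun-Ctrl; circles, replicate 1; triangles, replicate 2). Rpl17 at 10272 TPM leads the large subunit and Rps12 at 9943 TPM the small one, and the genes at the right end, among them Rpl30, Rpl34, Rpl26 and Rps27, lie far under the rest.

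At the other end, 7 genes averaged under 10 CPM. Rpl26 had no count in any library, which allows up to 0.197 and 0.443 CPM in Jun-cKO-labelled libraries and 0.182 and 0.459 CPM in Jun-Ctrl (a floor of 3 counts, covering counting error only). Rpl30 averaged 4.97 TPM, Rpl34 3.45 TPM and Rps27 3.29 TPM over the 4 libraries. These 4 encode proteins found in every cytosolic ribosome, and each shares read-length sequence with a pseudogene or copy listed in the table. These are Gm15772 for Rpl26, Gm12191 for Rpl30, Rpl34-ps1 for Rpl34 and Rps27rt for Rps27, all at 0 counts in the 4 libraries. How reads that match several places were counted is not given in the sources used here. The low levels of these 4 genes are thus values of the table and not shown to be levels of the mRNA. Shared read-length stretches made up 45.6% of Rpl26, 70.7% of Rpl30, 29.3% of Rpl34 and 98.5% of Rps27. The median over the 81 genes was 41.5%, and Spearman's rho between level and shared percentage was -0.09. The part of shared sequence in these low levels was not tested. The others under 10 CPM were Rpl39l, Rpl3l and Rpl10l, paralogs known from restricted tissues. Above this group the next lowest were Rps4l at 114.6 TPM and Rps15a at 130.9 TPM, where the Rps15a counts were divided by a listed gene length of 5134 bases.

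The change between the groups was then examined, the question being how the ribosomal protein messages stand in the Jun-cKO-labelled libraries. Of the 78 genes tested (46 large, 32 small subunit), 14 were called higher and 2 lower at an adjusted p under 0.05, and 62 were not called. That is 20.5% of them called, against 41.5% of all 12656 genes tested. In the higher direction the shares were 17.9% of the ribosomal protein genes and 19.0% of all genes, and in the lower direction 2.56% of the ribosomal protein genes and 22.5% of all genes. Rpl26, Rpl3l and Rpl10l had too few counts to be tested. Fold changes were small, with a median log2 fold change of 0.12 against 0.01 for all tested genes. The sizes were under 0.5 for 71 genes, and the 95% interval lay between -1 and 1 for 74. With a median standard error of 0.133 on the log2 scale, small changes of the uncalled genes are within the error. The count of called ribosomal protein genes, 16, was 3 without Jun-Ctrl replicate 1 (Rpl10, Rpl23 and Rpl27a), 3.9% of them against 24.5% of all genes in that fit. Without Jun-cKO replicate 1 it was 31, 40.3% of them against 38.5% of all genes, so the lower share than among all genes did not hold there. With the replicate block and the GC offset together 39.7% of them were called, against 43.0% of all genes. One of the 2 genes called lower, Rpl39l, passed the filter on low counts only through Jun-Ctrl, the group where it is high. The p-values measure the spread between libraries whose separate origin the labels do not give, and that spread may be technical.

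**Figure D2:**
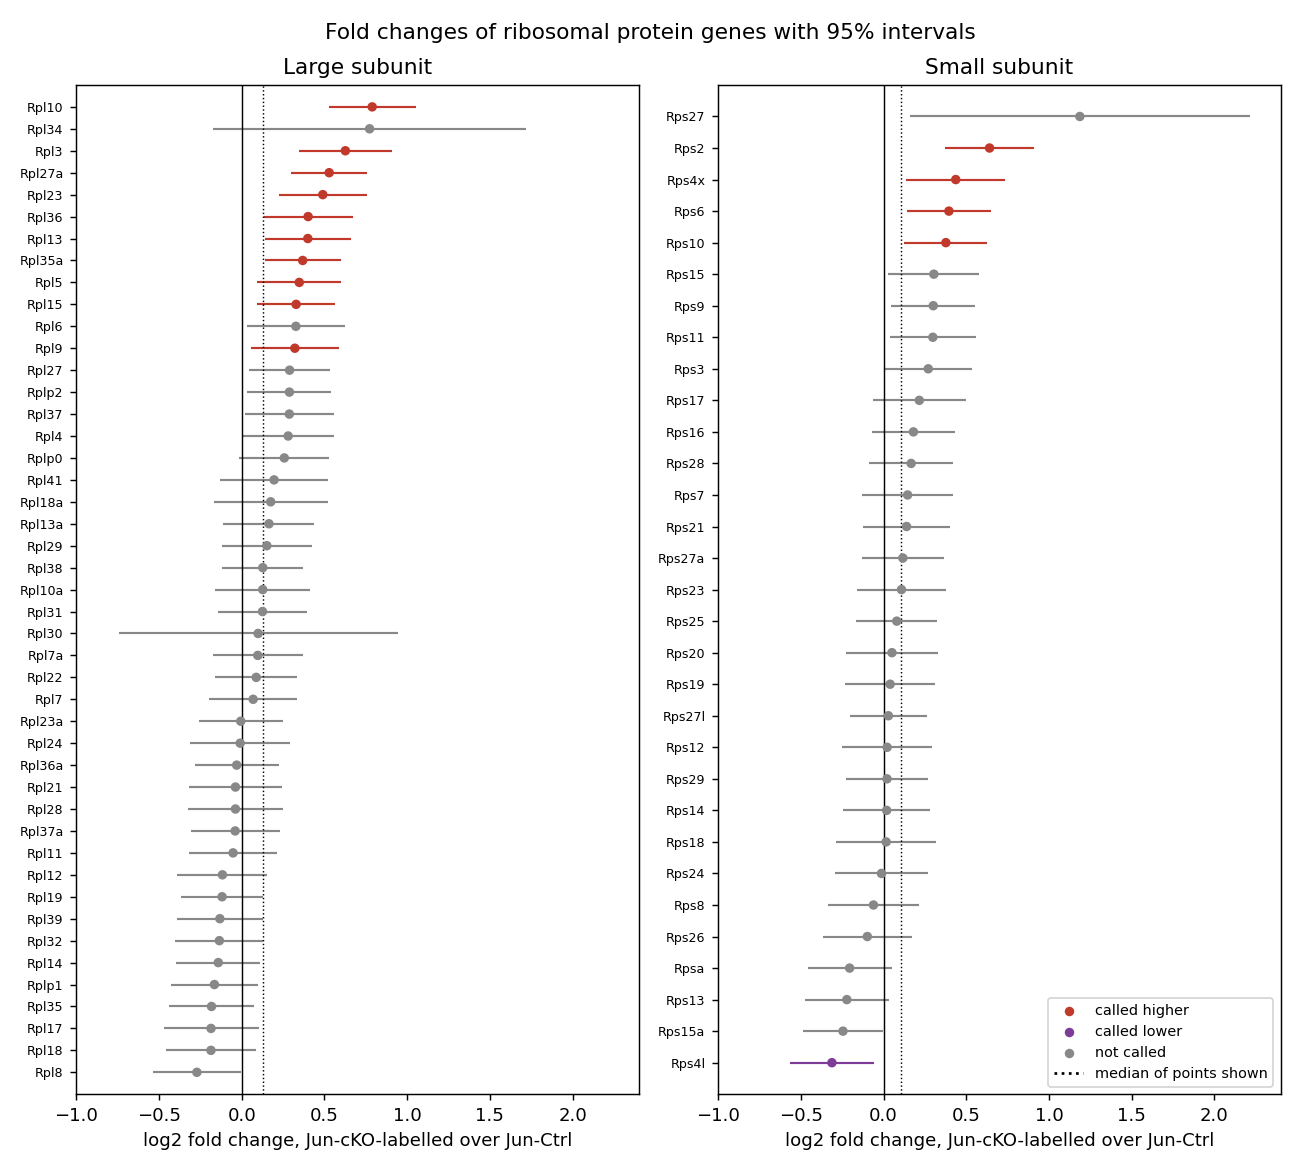
Log2 fold changes of tested ribosomal protein genes, Jun-cKO-labelled over Jun-Ctrl, with 95% intervals, for the large subunit on the left and the small subunit on the right (red, called higher; purple, called lower; grey, not called; dotted line, median of the points shown). Rpl39l, whose fitted value lies off the scale because 1 Jun-cKO-labelled library has 0 counts, is left out, and Rpl10 at 0.79 is the highest called gene.

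By position of the libraries, 25 of the 78 genes had both Jun-cKO-labelled libraries above both Jun-Ctrl libraries, 32.1% against 35.4% of all tested genes. The reverse held for 6 of them, 7.69% against 35.9%, and in 47 the groups overlapped. The 25 include Rps27 and the 6 include Rpl39l. Each passed the filter on low counts only through the group where it is high, so its groups had to stand apart. A positive fold change was fitted for 53 genes and a negative one for 25. This lean depends on the scaling. With an offset for the trend of each library on mean expression, 6 genes were called higher and 9 lower (19.2%, against 39.1% of all genes). The median log2 fold change was then -0.04. With library totals alone 11 were called higher and 4 lower (19.2%, against 40.2% of all genes).

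Rpl10, which completes the large subunit late in its maturation and lies near the site of peptide bond formation, had the largest called increase. It stood at 884 and 1153 CPM in Jun-cKO-labelled libraries, against 547 and 633 CPM in Jun-Ctrl. In log2 terms the fold change was 0.79 with a standard error of 0.131 (adjusted p = 3.29e-06, edgeR quasi-likelihood, Benjamini-Hochberg). The groups do not overlap, and the call held in all 17 analyses run, the one reported and 16 alternatives. The gene lies at chrX:74270812-74273135 (GRCm38, plus strand) and has 6 exons in the GENCODE transcript used. Of the stretches of read length in that transcript 84.8% also occur in another gene.

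Rpl3, an early assembly protein of the large subunit that reaches toward its catalytic centre, had 1438 and 2037 CPM in Jun-cKO-labelled libraries, against 1033 and 1218 CPM in Jun-Ctrl. The log2 fold change was 0.63 (standard error 0.139 with adjusted p = 0.000305, edgeR quasi-likelihood, Benjamini-Hochberg). It was not called by the DESeq2 Wald test (adjusted p = 0.0729) or without Jun-Ctrl replicate 1 (log2 fold change 0.50, adjusted p = 0.086), and the value was 0.36 without Jun-cKO replicate 2. Rpl27a, another core protein of the large subunit, had 267.6 and 287.4 CPM in Jun-cKO-labelled libraries, against 188.6 and 196.1 CPM in Jun-Ctrl, with the values close together within each group. The fitted log2 fold change was 0.53 (standard error 0.115 with adjusted p = 0.00023 by the same test), called in all 17 analyses. Rpl23, on the face of the large subunit that meets the small one, had 2378 and 2615 CPM in Jun-cKO-labelled libraries, against 1804 and 1751 CPM in Jun-Ctrl. Its log2 fold change was 0.49 (standard error 0.131 with adjusted p = 0.0023 by the same test), and without Jun-Ctrl replicate 2 it was 0.45 (adjusted p = 0.058). None of these 3 genes has overlapping groups.

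Smaller increases were called for 6 further large subunit genes, with log2 fold changes from 0.32 to 0.40. Rpl13 had 1196 and 1178 CPM in Jun-cKO-labelled libraries, against 787 and 1015 CPM in Jun-Ctrl, and without Jun-Ctrl replicate 1 its log2 fold change was 0.21 (adjusted p = 0.349) in place of 0.40. Rpl35a, one of the genes mutated in Diamond-Blackfan anaemia, had 294.0 and 303.7 CPM in Jun-cKO-labelled libraries, against 227.0 and 236.1 CPM in Jun-Ctrl, a log2 fold change of 0.37 that was not called without Jun-Ctrl replicate 1 (0.33) or Jun-Ctrl replicate 2 (0.38). In both genes the groups stand apart. Rpl36 had 165.2 and 220.6 CPM in Jun-cKO-labelled libraries, against 119.4 and 173.8 CPM in Jun-Ctrl, so its groups overlap. In log2 terms the fold change of 0.40 was 0.20 without Jun-cKO replicate 2 and 0.13 without Jun-Ctrl replicate 1, neither of them called, and 0.67 without Jun-Ctrl replicate 2. Rpl15 had 380.3 and 424.5 CPM in Jun-cKO-labelled libraries, against 315.9 and 324.5 CPM in Jun-Ctrl. The fitted log2 fold change of 0.33 was not called without Jun-cKO replicate 2 (0.26), Jun-Ctrl replicate 1 (0.30) or Jun-Ctrl replicate 2 (0.33). Rpl9, whose sequence is found in 9 pseudogenes, had 2550.2 and 2603 CPM in Jun-cKO-labelled libraries, against 2089 and 2036 CPM in Jun-Ctrl. Its log2 fold change of 0.32 (adjusted p = 0.0447, edgeR quasi-likelihood, Benjamini-Hochberg) was called in 7 of 17 analyses and not without Jun-cKO replicate 2 (0.32), Jun-Ctrl replicate 1 (0.33) or Jun-Ctrl replicate 2 (0.28). The sixth, Rpl5, belongs with Rpl11 to the particle built on the 5S ribosomal RNA and is described with it.

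In the small subunit, Rps2, a protein at the channel where the mRNA enters, had the largest called increase. It stood at 982 and 1335 CPM in Jun-cKO-labelled libraries, against 676 and 810.1 CPM in Jun-Ctrl, with no overlap. In log2 terms the fold change was 0.64 (standard error 0.135 with adjusted p = 0.000141, edgeR quasi-likelihood, Benjamini-Hochberg), and without Jun-Ctrl replicate 1 it was 0.50 (adjusted p = 0.0695), the only one of the 16 alternatives in which it was not called. Without Jun-cKO replicate 2 its value was 0.41. Rps2 shares read-length sequence with 48 pseudogenes.

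Rps6, the small subunit protein phosphorylated by the S6 kinases, had 912 and 1088 CPM in Jun-cKO-labelled libraries, against 778 and 742 CPM in Jun-Ctrl, with no overlap. The fitted log2 fold change of 0.40 (standard error 0.126 with adjusted p = 0.00967 by the same test) was not called without Jun-cKO replicate 2 (0.27), Jun-Ctrl replicate 1 (0.42) or Jun-Ctrl replicate 2 (0.34). Rps10, which lies at the head of the small subunit, had 461 and 504 CPM in Jun-cKO-labelled libraries, against 319.8 and 425 CPM in Jun-Ctrl. The groups do not overlap, and the log2 fold change of 0.38 was 0.17 without Jun-Ctrl replicate 1 (adjusted p = 0.443 by edgeR's test) and 0.57 without Jun-Ctrl replicate 2. Exons of Gm15420 and of the readthrough gene RPS10-NUDT3 overlap 28.7% of the exon bases of Rps10. The library kit does not mark strand, and reads from the shared bases were not told apart by gene. Rps4x, the X-linked gene for a small subunit protein, had 970.5 and 1628 CPM in Jun-cKO-labelled libraries, against 871 and 1048 CPM in Jun-Ctrl. One Jun-cKO-labelled library carries this difference, since the groups overlap and the log2 fold change of 0.44 was 0.03 without Jun-cKO replicate 2 and 0.30 without Jun-Ctrl replicate 1, neither of them called, and 0.76 with Jun-cKO replicate 1 left out.

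These smaller changes also depended on the correction and the tool. With the offset for GC content the log2 fold changes of Rpl36 (0.87), Rps6 (0.77) and Rps10 (0.82) were larger, whereas Rps4x (0.34), Rpl35a (0.18), Rpl5 (0.14), Rpl15 (0.13) and Rpl9 (0.22) were not called. With the offset for mean expression, Rpl10, Rps2, Rpl3 and Rpl27a were the genes of the 14 that stayed called higher. The DESeq2 Wald test did not call Rpl3, Rps4x or Rpl36.

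Both genes called lower are paralogs of ribosomal proteins and not their main copies. Rpl39l, a paralog of Rpl39 known for its expression in testis, had 0 and 1 counts in Jun-cKO-labelled libraries, against 20 and 11 counts in Jun-Ctrl. The ratio of the summed counts, scaled to library size, was 0.0337 with an exact 95% interval of 0.000827 to 0.202. The gene passed the filter on low counts only through the Jun-Ctrl libraries, so that a tested Rpl39l had to differ, and its call is a description and no support for a change. Its main copy Rpl39, at the exit tunnel, had 1370.2 and 1122 CPM in Jun-cKO-labelled libraries, against 1335 and 1398 CPM in Jun-Ctrl, with overlapping groups and a log2 fold change of -0.13 (adjusted p = 0.432 by the same test). Rpl39l stood at 31 counts in all in Jun-Ctrl, so it is near the limit of detection in both groups, and no stretch of its transcript was found in another gene. Lung epithelial markers, at a sum of 139.1 and 141.9 CPM in Jun-cKO-labelled libraries, against 1495 and 1560 CPM in Jun-Ctrl, move in the same direction, and their part in this result was not tested.

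Rps4l, a single-exon paralog of Rps4x, had 56.1 and 48.4 CPM in Jun-cKO-labelled libraries, against 65.0 and 65.6 CPM in Jun-Ctrl. The groups do not overlap, and the log2 fold change was -0.31 (standard error 0.127 with adjusted p = 0.0442, edgeR quasi-likelihood, Benjamini-Hochberg). With an offset for transcript GC content the value was 0.05 (adjusted p = 0.747), and the call was lost without Jun-cKO replicate 2 (-0.21), Jun-Ctrl replicate 1 (-0.33) or Jun-Ctrl replicate 2 (-0.33). Rpl3l, the striated muscle paralog of Rpl3, had 0 and 2 counts in Jun-cKO-labelled libraries, against 16 and 4 counts in Jun-Ctrl, a ratio of 0.104 with an exact 95% interval of 0.0118 to 0.43. It was too low to be tested with the filter used. The fits that took it in were those with no filter, without Jun-cKO replicate 2 and without Jun-Ctrl replicate 2, and no call is drawn from them, since no Jun-cKO-labelled library reached the level of the filter. Rpl10l, a testis paralog of Rpl10, had 1 count in Jun-cKO-labelled replicate 1 and 0 in the other 3 libraries. Rps27l, the p53-inducible paralog of Rps27, had 290.1 and 278.3 CPM in Jun-cKO-labelled libraries, against 273.9 and 283.5 CPM in Jun-Ctrl, with overlapping groups and a log2 fold change of 0.03 (SE 0.115).

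Rpl5 and Rpl11 join the 5S ribosomal RNA before it enters the large subunit, and the free particle binds the p53 regulator Mdm2. Rpl5 had 738 and 930.0 CPM in Jun-cKO-labelled libraries, against 663 and 647 CPM in Jun-Ctrl, with no overlap. Its log2 fold change was 0.35 (standard error 0.126 with adjusted p = 0.023, edgeR quasi-likelihood, Benjamini-Hochberg), and it was not called without Jun-cKO replicate 2 (0.18), Jun-Ctrl replicate 1 (0.35) or Jun-Ctrl replicate 2 (0.31). Exons of Fam69a and Snord21 overlap 26.7% of its exon bases. Rpl11 had 1930 and 2005 CPM in Jun-cKO-labelled libraries, against 1843 and 2238 CPM in Jun-Ctrl, with the Jun-cKO-labelled values inside the range of Jun-Ctrl and a log2 fold change of -0.05 (SE 0.133). The difference between the 2 partners was not tested.

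The stalk proteins Rplp0, Rplp1 and Rplp2, which recruit elongation factors to the ribosome, gave 0 calls of 3 by edgeR, with 1 at an unadjusted p under 0.05, 0 calls by the DESeq2 Wald test and 1 by limma-voom. Of all tested genes, 41.5% were called by edgeR, 28.4% by the DESeq2 Wald test and 42.0% by limma-voom. With the GC offset, alone or with the replicate block, 2 of the 3 were called higher, and with the expression trend offset 1, Rplp1, was called lower. Rplp0 had 1472 and 1908 CPM in Jun-cKO-labelled libraries, against 1286 and 1542 CPM in Jun-Ctrl, and a log2 fold change of 0.26 (SE 0.136). Rplp2 had 947 and 881 CPM in Jun-cKO-labelled libraries, against 669.6 and 829 CPM in Jun-Ctrl, and a log2 fold change of 0.29 (standard error 0.127 with adjusted p = 0.0624, edgeR quasi-likelihood, Benjamini-Hochberg). Rplp1 had 1561 and 1514 CPM in Jun-cKO-labelled libraries, against 1564 and 1886 CPM in Jun-Ctrl, and a log2 fold change of -0.17 (SE 0.131). Only Rplp0 has overlapping groups among the 3. The fitted values lie on both sides of 0, but with the GC offset that of Rplp1 was 0.13.

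The genes around the mouth of the exit tunnel gave 0 calls of 7 tested by edgeR, by the DESeq2 Wald test and by limma-voom. Of all tested genes these tools called 41.5%, 28.4% and 42.0%. By edgeR 0 of the 7 had an unadjusted p under 0.05, and their median log2 fold change was -0.12. With the expression trend offset, with the GC offset and replicate block together, or without Jun-cKO replicate 1, 1 of the 7 was called lower. Rpl17 had 4605 and 3520.2 CPM in Jun-cKO-labelled libraries, against 4698 and 4545 CPM in Jun-Ctrl, a log2 fold change of -0.19 (SE 0.143). Of the 4 genes at the mRNA channel and decoding site, Rps2, Rps3, Rps15 and Rps23, only Rps2 was called in the reported fit. Their median log2 fold change was 0.29. Over the 17 analyses Rps15 (0.30) was called in 7, Rps3 (0.27) in 3 and Rps23 (0.11) in 0. Rpsa, which is also known as the laminin receptor precursor, had 388.4 and 445.7 CPM in Jun-cKO-labelled libraries, against 414.1 and 548 CPM in Jun-Ctrl, with overlapping groups and a log2 fold change of -0.20 (SE 0.126).

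Other abundant genes were not called. Rps12 had 3008 and 2670.1 CPM in Jun-cKO-labelled libraries, against 2630.2 and 2964 CPM in Jun-Ctrl, a log2 fold change of 0.02 (SE 0.135). Rps20 had 2329 and 2591 CPM in Jun-cKO-labelled libraries, against 2035 and 2715 CPM in Jun-Ctrl, a log2 fold change of 0.05 (SE 0.139). The groups overlap in both genes. Rpl12, with a log2 fold change of -0.12 (SE 0.135), likewise overlapped between the groups in CPM.

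Several uncalled genes lie close to the threshold. Rps9 had an adjusted p of 0.0512, Rpl27 of 0.0533 and Rps27 of 0.0579 by edgeR quasi-likelihood, Benjamini-Hochberg, all with positive fold changes. Rps27 rests on 27 and 7 counts in Jun-cKO-labelled libraries, against 10 and 5 counts in Jun-Ctrl, and its log2 fold change of 1.19 has a standard error of 0.512. It passed the filter on low counts only through the Jun-cKO-labelled libraries. Rpl34 rests on 21 and 14 counts in Jun-cKO-labelled libraries, against 17 and 5 counts in Jun-Ctrl (0.77, SE 0.47). These 2 have the widest intervals in the plot of fold changes. On the negative side Rpl8, Rps15a, Rps13 and Rplp1 had both Jun-cKO-labelled libraries below both Jun-Ctrl libraries without a call in the reported fit. For Rplp1 the nearest values were 1561 CPM in Jun-cKO-labelled replicate 1 and 1564 CPM in Jun-Ctrl replicate 1. Over the 17 analyses Rpl8 was called lower in 2, Rps15a in 5 and Rps13 in 3. Rpl8 had 1430 and 1568 CPM in Jun-cKO-labelled libraries, against 1656 and 1963 CPM in Jun-Ctrl (log2 fold change -0.27, SE 0.131), but its fold change was 0.08 with the GC offset. Rps15a had 351.8 and 319.0 CPM in Jun-cKO-labelled libraries, against 367.8 and 429.0 CPM in Jun-Ctrl (-0.25, SE 0.119). Rps13 had 979 and 1002 CPM in Jun-cKO-labelled libraries, against 1061 and 1250.1 CPM in Jun-Ctrl (-0.22, SE 0.127).

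The libraries of a group differed among themselves in the ribosomal protein genes as a set. Over the 74 genes of at least 10 CPM, the median log2 ratio of Jun-cKO-labelled replicate 1 to Jun-Ctrl replicate 1 was 0.19, with 59 genes above 0. For the replicates 2 of the groups the median was 0.02, with 41 genes above 0. Within Jun-Ctrl, replicate 2 over replicate 1 gave a median of 0.26 with 66 genes above 0, and within the Jun-cKO-labelled group it gave 0.14 with 55 above 0. The spread between the 2 Jun-Ctrl libraries is thus larger than the median difference between the groups. Jun-Ctrl replicate 1 is the lowest of the 4 libraries in both subunits. Without it, 3 genes were called higher, Rpl10, Rpl23 and Rpl27a, and 0 lower by edgeR's test, against 7 higher and 7 lower at an unadjusted p under 0.05, with a median log2 fold change of -0.03. No other tool was run on those 3 libraries. Without Jun-Ctrl replicate 2 the calls were 12 higher and 2 lower with a median of 0.26, without Jun-cKO replicate 1 they were 27 and 4 with a median of 0.16, and without Jun-cKO replicate 2 they were 12 and 3 with a median of 0.01. A fit without a Jun-Ctrl or a Jun-cKO-labelled library assumes that the lone library of its group varies like the others.

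**Figure D3:**
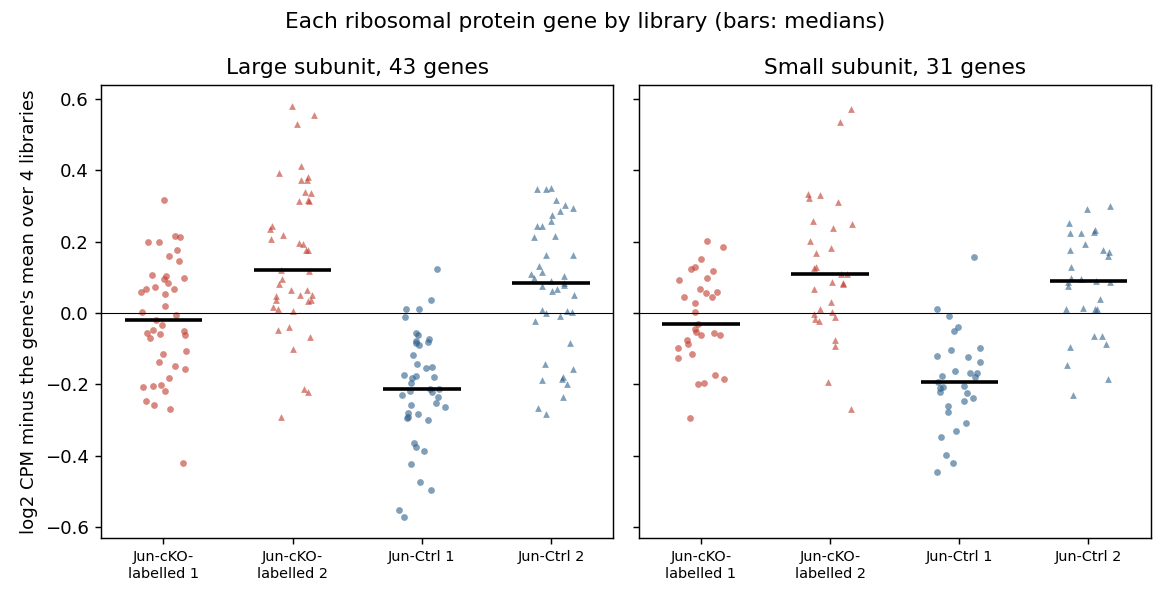
Level of each ribosomal protein gene of at least 10 CPM in each library, as log2 CPM minus that gene's mean over the 4 libraries, for 43 large (left) and 31 small subunit genes (right), with bars at the medians. The points of Jun-Ctrl replicate 1 lie lowest, and those of Jun-Ctrl replicate 2 lie at about the height of Jun-cKO-labelled replicate 2.

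The subunits differed from each other by less than this spread. Of the large subunit genes 10 were called higher and 1, Rpl39l, lower of 46 tested (23.9%). Of the small subunit genes 4 were called higher and 1 lower of 32 (15.6%). In the same fit 41.5% of all tested genes were called, 19.0% higher and 22.5% lower. Rpl39l passed the filter on low counts only through Jun-Ctrl. The median log2 fold changes were 0.13 for the large and 0.11 for the small subunit. Counts of large over small subunit genes gave a ratio of 1.53 and 1.51 in the Jun-cKO-labelled libraries, against 1.55 and 1.52 in Jun-Ctrl, and the groups overlap. Per kilobase of gene length the ratios were 1.22 and 1.19 in the Jun-cKO-labelled libraries, against 1.25 and 1.22 in Jun-Ctrl, and the groups nearly touch, at 1.2186 in Jun-cKO-labelled replicate 1 against 1.2194 in Jun-Ctrl replicate 2. The difference between the mean ratios per kilobase was -0.03, with standard deviations of 0.0217 in the Jun-cKO-labelled libraries and 0.0225 in Jun-Ctrl (n = 2 each).

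Many ribosomal protein messages cannot be placed uniquely by reads of 79 bases. In the GENCODE transcripts, 74 of the 81 genes share at least 1 stretch of that length with a pseudogene, in 684 pairs of gene and partner of which 633 involve pseudogenes. The median gene shares 41.5% of its stretches. For the genes called higher the median was 66.3%, with 9 of 14 sharing at least 50%, and for the uncalled genes it was 38.9%, with 23 of 62. Leaving out the 32 genes that share at least 50% of their stretches, 23 of them uncalled, left 5 called higher and 2 lower. Shared stretches were counted for ribosomal protein genes only, so no share over all genes stands beside these calls. Across 74 genes Spearman's rho between fold change and shared percentage was 0.18, as a description over genes that share libraries. The same rho was -0.01 with GC content and -0.05 with mean level. The part of shared sequence in the calls was not tested.

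**Figure D4:**
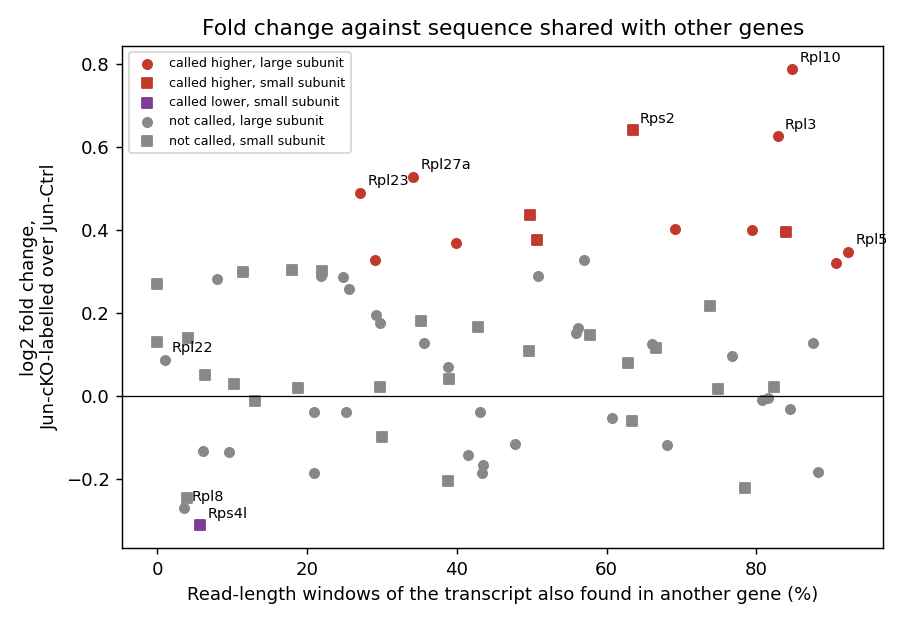
Log2 fold change of 74 ribosomal protein genes of at least 10 CPM against the percentage of read-length stretches of the transcript that also occur in another gene (circles, large subunit; squares, small subunit; red, called higher; purple, called lower; grey, not called). Genes called higher stand at 27.1% for Rpl23 and up to 92.3% for Rpl5.

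In 33 pairs of a ribosomal protein gene and a gene sharing its sequence, the partner is itself listed in the table. The 13 partners looked at were those annotated as pseudogenes, and Rps27rt. They share from 1.41% (Rps15a-ps4) to 98.5% (Rps27rt) of the stretches of the ribosomal protein gene. Of these 13 rows, 5 had 0 counts in all libraries. Rpl37rt, a copy of Rpl37, held the most, with 1259 and 314 counts in Jun-cKO-labelled libraries, against 1380 and 346 counts in Jun-Ctrl. Exons of 37 ribosomal protein genes overlap another annotated gene, small nucleolar RNAs such as Snora70 in Rpl10 among them.

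Other parts of the translation machinery were set beside these genes. Of 6 tested ribosomal proteins that the rule leaves out, 2 were called higher and 0 lower by edgeR, with 0 lower at an unadjusted p under 0.05 and 0 lower by the DESeq2 Wald test or limma-voom. Rps3a1, a small subunit protein, had 760.0 and 1037 CPM in Jun-cKO-labelled libraries, against 584 and 649 CPM in Jun-Ctrl, a log2 fold change of 0.54 that was not called without Jun-cKO replicate 2 (0.31) or Jun-Ctrl replicate 1 (0.46). Rpl22l1, a paralog of Rpl22, had a log2 fold change of 0.33, not called without Jun-cKO replicate 2 (0.21) or Jun-Ctrl replicate 1 (0.19), nor with library totals, the expression trend offset, the GC offset with or without the replicate block, or the DESeq2 Wald test. Without Jun-cKO replicate 2 or Jun-Ctrl replicate 1, 0 of the 6 were called by edgeR, and no other tool was run on those libraries.

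Mitochondrial ribosomal proteins, which form the separate ribosome of mitochondria, gave 11 calls higher and 4 lower of 77 tested (19.5%, against 41.5% of all genes), with a median log2 fold change of 0.09. Without Jun-Ctrl replicate 1 the calls were 1 higher and 3 lower, without Jun-cKO replicate 2 they were 7 and 4, and by the DESeq2 Wald test 3 and 3. Mrpl52 had 143.8 and 121.9 CPM in Jun-cKO-labelled libraries, against 55.9 and 72.2 CPM in Jun-Ctrl (log2 fold change 1.07). Mrps5 had 6.36 and 3.99 CPM in Jun-cKO-labelled libraries, against 15.8 and 17.4 CPM in Jun-Ctrl (-1.59). Both were called in all 17 analyses. Mrpl51 (0.45; 0.41 without Jun-Ctrl replicate 1, not called) and Mrps11 (-0.60) were the next by p. Proteasome subunits, another set of genes whose proteins form 1 complex, gave 8 higher and 1 lower of 31 (29.0%), with a median of 0.12 that was below 0 with the expression trend offset, the GC offset, or the GC offset and replicate block together (-0.02). The calls were 1 higher and 1 lower without Jun-Ctrl replicate 1, and 5 and 1 without Jun-cKO replicate 2. Among them Psmb2 (0.56) was called in all 17 analyses, Psmb4 (0.50) was not called without Jun-Ctrl replicate 1 (0.43), and Psma7 (-0.39) not without Jun-Ctrl replicate 2 (-0.34) or with the GC offset, alone or with the replicate block.

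The factors that act on ribosomes gave calls in both directions. Of 34 initiation factors 6 were called higher and 2 lower (23.5%), with 3 and 1 when Jun-Ctrl replicate 1 was left out, and 4 and 1 when replicate 2 of that group was. Eif3m, a subunit of eIF3, had 185.1 and 261 CPM in Jun-cKO-labelled libraries, against 133.9 and 141.8 CPM in Jun-Ctrl (log2 fold change 0.69). Eif4g1, the scaffold that brings the ribosome to the mRNA cap, had 20.1 and 18.2 CPM in Jun-cKO-labelled libraries, against 74.5 and 70.7 CPM in Jun-Ctrl (-1.92). Both were called in all 17 analyses. Eif3e (0.48) was not called without Jun-Ctrl replicate 2 (0.32) or with the GC offset, alone or with the replicate block, and Eif2s2 (-0.32) not without Jun-cKO replicate 1 (-0.30), Jun-Ctrl replicate 1 (-0.30) or Jun-Ctrl replicate 2 (-0.36). Of 8 elongation factors 2 were called higher and 2 lower, with 0 and 2 without Jun-Ctrl replicate 1. Eef2, which moves the ribosome along the mRNA, had 714 and 689 CPM in Jun-cKO-labelled libraries, against 1092 and 1316 CPM in Jun-Ctrl (-0.78). Eif5a had 303.5 and 246.0 CPM in Jun-cKO-labelled libraries, against 454.6 and 443.5 CPM in Jun-Ctrl (-0.71), and both genes were called in all 17 analyses. Eef1a1, which delivers tRNA, had 2318 and 3099 CPM in Jun-cKO-labelled libraries, against 2090.0 and 2067 CPM in Jun-Ctrl (0.38), not called without Jun-cKO replicate 2 (0.17), Jun-Ctrl replicate 1 (0.38) or Jun-Ctrl replicate 2 (0.35), nor with library totals, the expression trend offset or the GC offset. Eef1g had a log2 fold change of 0.36, which was 0.22 and not called without Jun-Ctrl replicate 1, and it was not called with the expression trend offset.

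Genes that build ribosomes and those that regulate growth complete the comparison, beside 41.5% of all tested genes called, 19.0% higher and 22.5% lower. Of 48 ribosome biogenesis genes 6 were called higher and 10 lower (33.3%), with 1 and 5 when Jun-Ctrl replicate 1 was left out, and 3 and 6 when replicate 2 of that group was. Bop1, an assembly factor of the large subunit, had 7.54 and 9.01 CPM in Jun-cKO-labelled libraries, against 24.7 and 29.5 CPM in Jun-Ctrl (log2 fold change -1.72), and Nop2 (-1.22) and Bccip (0.87) were likewise called in all 17 analyses. Nop10 (0.53) was not called without Jun-Ctrl replicate 1 (0.47). Of 13 tested RNA polymerase I genes 1 was called higher and 2 lower (23.1%, against 41.5% of all genes). Their median log2 fold change was 0.08, and -0.004 without Jun-Ctrl replicate 2. Polr1a, its largest subunit, was lower (-0.95) in all 17 analyses, Ubtf (-0.53) was not called without Jun-Ctrl replicate 2 (-0.34), and Taf1b (0.47) not without Jun-cKO replicate 1 (0.35) or Jun-Ctrl replicate 2 (0.29), with the GC offset or by the DESeq2 Wald test. Of 22 other TOP mRNAs 10 were called higher (45.5%, against 19.0% of all genes) and 1, Eef2, lower (4.55%, against 22.5%). Their median log2 fold change was 0.21. The calls were 3 higher and 1 lower when Jun-Ctrl replicate 1 was left out, 4 and 1 when replicate 2 of that group was, 5 and 2 with the GC offset, and 4 and 2 with the expression trend offset, where the median was 0.08. Snhg5, a small nucleolar RNA host, had 204.1 and 167.3 CPM in Jun-cKO-labelled libraries, against 107.6 and 86.4 CPM in Jun-Ctrl (0.93). Tpt1 had 2173 and 3304 CPM in Jun-cKO-labelled libraries, against 1457 and 1604 CPM in Jun-Ctrl (0.84), and both were called in all 17 analyses. Some TOP mRNAs, Eef2 among them, encode translation factors and stand in those lists too. Of 25 growth regulators 1 was called higher and 7 lower (32.0%), with 0 and 4 without Jun-Ctrl replicate 1, and 2 and 4 without Jun-cKO replicate 1. Larp1 had 77.4 and 58.9 CPM in Jun-cKO-labelled libraries, against 126.3 and 134.2 CPM in Jun-Ctrl (-0.92). Rptor, a subunit of mTORC1, had a log2 fold change of -1.09 and was called in all 17 analyses, as was Larp1. Akt1s1, an inhibitor of mTORC1, had 0.42, which was not called without Jun-cKO replicate 1 (0.34), Jun-Ctrl replicate 1 (0.34) or Jun-Ctrl replicate 2 (0.44), nor with library totals or by the DESeq2 Wald test. Differences between these lists and the ribosomal protein genes were not tested.

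**Figure D5:**
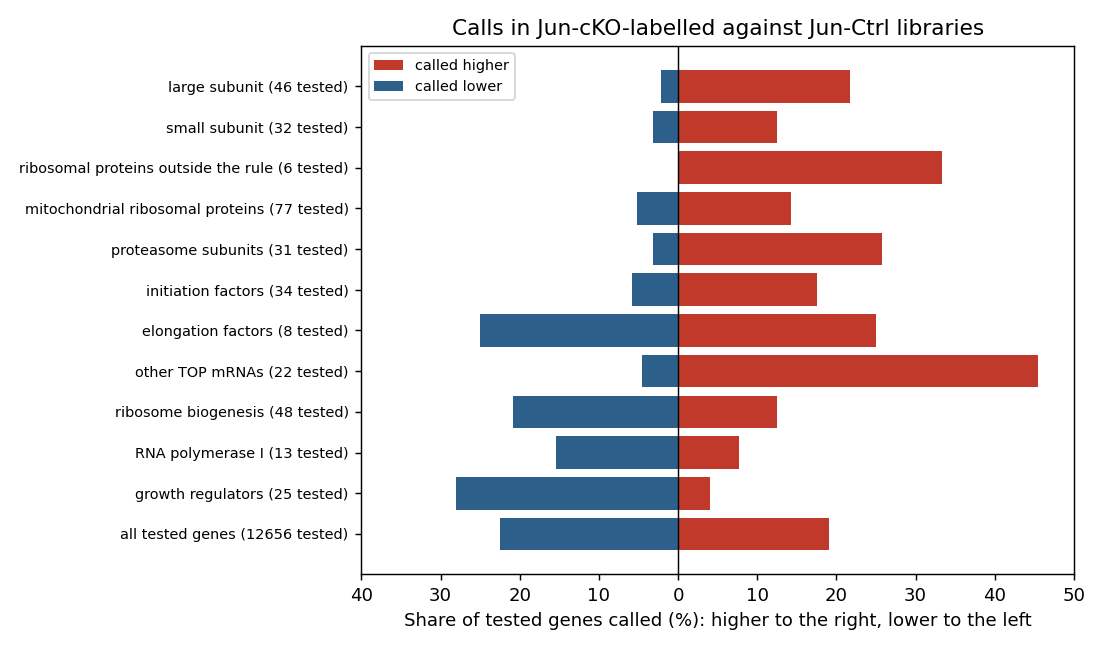
Percentage of the tested genes of each list called higher (red, to the right) or lower (blue, to the left) in the Jun-cKO-labelled libraries against Jun-Ctrl, for both ribosomal subunits and the other lists, with all tested genes in the lowest row. All tested genes stand at 19.0% higher and 22.5% lower, and the small subunit at 12.5% and 3.12%.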

How the data were processed

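Raw counts of reads by gene were deposited for 4 libraries, 2 labelled Jun-cKO and 2 labelled Jun-Ctrl, with the authors' gene length in bases. A PicoPure isolation, RiboAmp HS PLUS amplification, NEBNext Ultra II DNA libraries and HiSeq reads of 79 bases are stated per the labels' protocols. STAR 2.7.2a, featureCounts 1.6.4, edgeR 3.28.1 and mm10 are named, without roles, per the submitters' processing notes. Not given in the sources used here are the annotation, the strand setting and the treatment of reads with several matches. Of the 24421 rows, 2 carry a name that another row has, none is a ribosomal protein gene, and 0 columns of other samples were left unused.

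The test was edgeR 4.0.16 (R 4.3.3) with TMM, filterByExpr, glmQLFit and glmQLFTest, which kept 12656 genes, with Benjamini-Hochberg adjustment over all of them and a call at an adjusted p under 0.05. CPM values are TMM-scaled. TPM divides counts by the deposited gene length. The floor of 3 counts and the exact intervals of the count ratios cover counting error only. Reads amplified without molecular identifiers do not count molecules. The intervals of the fold changes rest on the standard errors of the fit, which also take in the spread between libraries. The biological coefficient of variation was 0.089. Between the libraries of a group the median chi-square of a gene was 1.51 in the Jun-cKO-labelled group and 1.26 in Jun-Ctrl, against 0.455 from sampling. Shared sequence was counted as stretches of 79 bases of GENCODE M21 transcripts (GRCm38, the build mm10 names) found in another gene, and exon overlaps come from the same annotation. GC content was matched for 96.3% of tested genes. The reported kind of fit, without the filter, was run on simulated counts of 12656 genes, of which 200 were changed. It recovered 52% of the 1.5-fold and 77% of the 2-fold changes, with 3 false calls among 132 calls.

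Alternatives were DESeq2 1.42.0 size factors, upper-quartile scaling, library totals, TMM without the ribosomal protein genes, loess offsets (span 0.5) for mean expression or GC content, the DESeq2 Wald test, limma-voom (limma 3.58.1), no filter, a minimum of 50 counts in 2 libraries, a block for the replicate mark, and each library left out. Removal of genes under 10 CPM or with at least 50% shared stretches was chosen after seeing the data. The members and all lists were chosen with earlier results of these data known. Named genes are called genes whose log2 fold change reaches 0.5 in size, the 6 highest and 6 lowest fold changes, the 5 highest and 3 lowest levels, the stalk genes, Rpl5, Rpl11, Rpsa, Rps6, the restricted or inducible paralogs with their main copies, and in each other list up to 2 called genes with the smallest p in each direction. One gene that the rule names is not reported here. The remaining called genes, Rps9, Rpl27, Rpl30, Rpl26, Rpl4 and Rpl37rt were named after their values were seen.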

Additional observations from a re-analysis of the deposited data

How the results depend on the processing

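Rpl10 and Rpl27a were called in all 17 analyses. Over the named genes, 388 values kept direction and side of the threshold, 29 passed it anew, 56 no longer passed it and 34 changed sign. Of the called genes, Rps4l changed sign, at 0.0533 with the GC offset and 0.0522 with the GC offset and replicate block. The other sign changes were in genes called in neither analysis. With the GC offset, and with the GC offset and block, the values were 0.0219 and 0.0256 for Rpl11, 0.0771 and 0.074 for Rpl8, 0.132 and 0.135 for Rplp1, -0.146 and -0.145 for Rps12, -0.185 and -0.164 for Rps20, and -0.17 and -0.169 for Rps27l. Under upper-quartile scaling, library totals, the expression trend offset and the filter of 50 counts, Rps12 stood at -0.0152, -0.0325, -0.15 and -0.0152, and Rps27l at -0.00806, -0.0259, -0.0945 and -0.00802. Rps20 stood at -0.00238 with library totals and -0.117 with the expression trend offset. With 1 library left out, Rpl11 ranged from -0.198 to 0.0732, Rpl12 from -0.286 to 0.0426, Rpl17 from -0.393 to 0.00387, Rpl39 from -0.285 to 0.013, Rps12 from -0.0742 to 0.114, Rps20 from -0.154 to 0.253 and Rps27l from -0.00801 to 0.0675. Called ribosomal protein genes numbered 16, with 31 under the replicate block with the GC offset, 7 without genes sharing at least 50% of stretches, and 3 to 31 with 1 library left out, with 3 when Jun-Ctrl replicate 1 was absent and 31 when Jun-cKO replicate 1 was. Called shares, against those of all genes, were 39.7% and 43.0% with block and GC offset, 28.8% and 33.3% with no filter, 40.3% and 38.5% without Jun-cKO replicate 1, and 3.9% and 24.5% without Jun-Ctrl replicate 1. The median log2 fold change of the ribosomal protein genes, 0.12, was -0.0397 with the expression trend offset and -0.03 to 0.26 with 1 library left out. The difference between the subunit medians, large minus small, was 0.01, and it was 0.0411 with the expression trend offset, 0.0539 with the GC offset, 0.0623 with the GC offset and block, and -0.0205 to 0.0729 with 1 library left out. All called genes numbered 5251, with 2992 to 4794 when 1 library was left out, fewest without Jun-Ctrl replicate 1 (2992) and Jun-Ctrl replicate 2 (3425). Jun passed the threshold with the GC offset (0.34) and with the GC offset and block (0.34). The cause of these shifts was not tested. The labels do not say whether equal replicate numbers pair the samples. Over all tested genes the deviations of the replicates 1 from their group means correlated at 0.0732 between the groups. In both groups replicate 2 was the shallower library and stood higher, by median, in the ribosomal protein genes. Whether equal replicate numbers share a batch was not tested. The replicate block alone gave 22 ribosomal protein genes higher and 2 lower, 24 in all. That is 30.8% of those tested, against 42.9% of all genes. Genes called lower numbered 4 with library totals, 1 with the DESeq2 Wald test and 1 with the filter of 50 counts, and limma-voom gave 22 higher. Called shares, against those of all genes, were 19.2% and 40.2% with library totals and 20.5% and 28.4% with the DESeq2 Wald test. They were 18.9% and 39.3% with the filter of 50 counts and 30.8% and 42.0% with limma-voom. For the 7 calls without genes sharing at least 50% of stretches, no share over all genes was computed. Values of Rpl39l, Rpl3l, Rpl10l, Rpl30, Rpl34 and Rps27, all under 10 CPM, rest on few counts, which limits their precision.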
